A study of Homo sapiens with 6 samples.

Results

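The 55 genes described here encode the machinery that copies nuclear DNA, out of 19974 protein-coding genes placed on chromosomes 1 to 22 and X. They comprise 9 genes of origin licensing, 13 of the replicative helicase and its partners, 12 of the replicative polymerases, 6 of the sliding clamp and its loader, and 15 other replication genes. The genes share a function, but the set was chosen with earlier results of these data known. A gene was called marked when a GABPA peak had its summit no more than 1 kb from an end of the RefSeq span. The peaks come from ChIP-seq of A-375 cells, a long-established line derived from a human melanoma, and 3 conditions have 1 ChIP library each. The first condition is a line with a knockout in GABPB1, which encodes the B1 subunit of GABP, at its exon 2, and into which TERT, the telomerase reverse transcriptase gene, was knocked in afterwards. The second is a ROSA26 knockout line (No1), a control edited at another locus, and the third is the parental line with no knockout. The protocols in the labels describe the knockout lines as clones raised from sorted cells. With 1 library per condition, no difference between conditions has a replicate check, and the B1 knockout, the TERT knock-in and the choice of clone cannot be told apart. GABPA peak positions do not measure expression or the edited allele, so neither the knockout nor the melanoma identity was checked in these data.

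GABP is a transcription factor in which GABPA, an ETS family protein, contacts DNA. Its B subunit, from the GABPB1 or the GABPB2 gene, carries the activation domain, and some forms of it can join GABP units. Replication begins when the origin recognition complex (ORC), CDC6 and CDT1 load the MCM helicase ring onto DNA in G1 phase. The ring is activated in S phase by CDC45 and the GINS complex, polymerase alpha lays down primers, and polymerases delta and epsilon copy the strands with the clamp PCNA, which the RFC complex loads. Many of these genes are textbook targets of E2F factors, which switch them on at the G1 to S transition, and GABP is best known for promoters of mitochondrial and protein synthesis genes.

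The lists hold 1660 peaks for the B1 knockout, 3857 for ROSA26 and 3024 for the parental line. The background read number shared by the largest number of peaks, which depends on both the number of reads and the length they are extended to, was 9.86 in the B1 knockout, 14.2 in the ROSA26 and 15.4 in the parental library. The B1 knockout library thus stood at 69.3% of ROSA26 and 64.0% of parental, and the part of this difference in the results below was not tested beyond the rescaled values given. A gene without a listed peak is below the limit of the peak caller and is not shown to be unbound.

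Replication genes were marked in the B1 knockout at a share close to that of all genes, which lay within its counting interval. In ROSA26 their share lay above that of all genes beyond its counting interval, and in the parental line the all-gene share was again within the interval. Of the 55 genes, 4 had a peak in the B1 knockout (7.27%, 95% exact Clopper-Pearson interval 2.02 to 17.6), 22 in ROSA26 (40.0%, 27.0 to 54.1) and 14 in the parental line (25.5%, 14.7 to 39.0). Over all protein-coding genes, these members included, the shares were 9.32% in the B1 knockout, 18.5% in ROSA26 and 15.5% in the parental line. All 14 genes marked in the parental line were also marked in ROSA26. Of these 14, 4 had a B1 knockout peak (28.6%, 8.39 to 58.1) and 10 had none, whereas 60.4% of the 3063 genes marked in both controls had one and 39.6% did not. The remaining 8 of the 22 were marked in ROSA26 alone (36.4%), against 17.1% of all ROSA26-marked genes without a parental peak. The other 33 members were marked in no library. Among genes with a promoter window (described below), 28 of 47 members and 12638 of all 15813 genes were marked in no library, so most genes at large were unmarked too. The intervals cover counting error over genes only.

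The 4 genes marked in all 3 libraries were FEN1, RFC2, ORC3 and MCM7, 1 from each group except the polymerases. They were also the 4 with the highest parental fold and the 4 with the highest ROSA26 fold among the 14. The members with and without a B1 knockout peak thus did not overlap in either control, whereas genes at large did. Of all genes in the parental fold range of the 10 members without one, 30.9% had a B1 knockout peak. In their ROSA26 fold range 51.6% (48.9 to 54.3) of all genes did. The split between the groups of members was 1 of 3 for origin licensing, 1 of 6 for the helicase, 0 of 1 for polymerases, 1 of 2 for clamp and loader and 1 of 2 for the other genes. The exact intervals of these shares overlap in all 5 groups, with an upper bound of at least 64.1% in each, and differences between the groups were not tested.

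**Figure D1:**
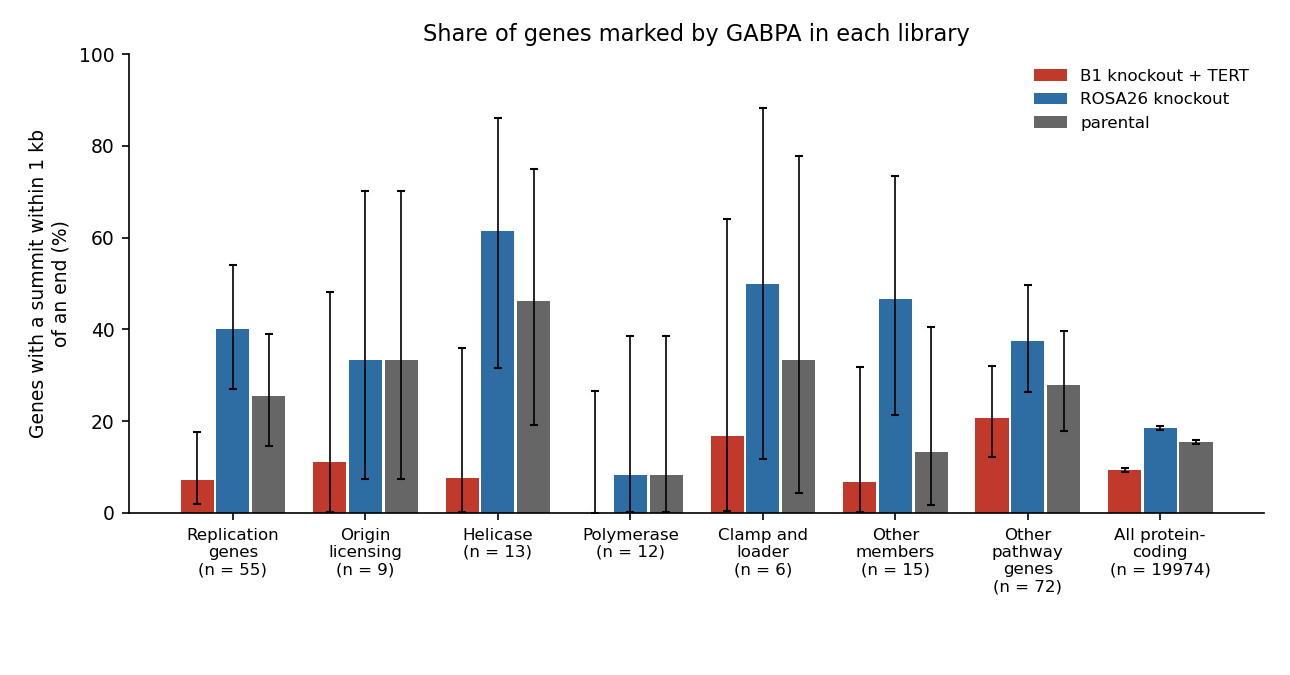
Share of genes with a GABPA summit within 1 kb of a gene end (y axis, percent) in the B1 knockout, ROSA26 and parental libraries, for the 55 replication genes, their 5 role groups, 72 other genes of the same pathway and all protein-coding genes. Bars are shares and lines are exact 95% intervals over genes. Replication genes stand at 7.27% in the B1 knockout, 40.0% in ROSA26 and 25.5% in the parental library.

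FEN1 encodes the flap endonuclease that trims the displaced ends of Okazaki fragments (chromosome 11, 61792911 to 61797238, hg38). Its peak had a fold enrichment of 8.12 in the B1 knockout, 16.2 in ROSA26 and 12.2 in the parental list. Here and throughout, fold is a value of the authors' peak caller, the pileup at the summit over the local background. It ranks peaks within 1 list, and values of different lists are set side by side with no test. The summit held 122 reads in the B1 knockout (95% exact Poisson interval 101 to 146, counting error only), 328 in ROSA26 (294 to 366) and 277 in the parental library (245 to 312), in libraries of unequal background. The −log10 p of the peak was 64.1, 273 and 171 in the same order of B1 knockout, ROSA26 and parental. Within their own lists, 72.7% of B1 knockout peaks, 95.8% of ROSA26 peaks and 87.9% of parental peaks had a lower fold than the FEN1 peak, and since the lists differ in length these ranks show no change. The 3 summits lay 258, 261 and 264 bp before the FEN1 start, within 6 bp of each other, and within 1 kb of TMEM258, a subunit gene of the oligosaccharyltransferase complex.

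RFC2, a subunit of the clamp loader (chromosome 7, 74231502 to 74254399), had the highest fold of the members in the B1 knockout. The fold was 9.79 in the B1 knockout, 13.99 in ROSA26 and 11.2 in the parental list, with −log10 p of 63.9, 227 and 167 in that order. Summit reads were 106 (86.8 to 128) in the B1 knockout, 295 (262 to 331) in ROSA26 and 285 (253 to 320) in the parental library, and the summits lay 81, 90 and 76 bp before the start. No other protein-coding gene had an end within 1 kb of this peak, in contrast to the other 3 genes marked in all libraries. At those 3 genes the B1 knockout summit lay nearer to an end of another gene than to the member's own.

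ORC3, a subunit of the origin recognition complex (chromosome 6, 87590135 to 87677823), had folds of 5.13 in the B1 knockout, 15.9 in ROSA26 and 11.7 in the parental list. Within their own lists, 40.7% of B1 knockout peaks, 95.1% of ROSA26 peaks and 86.0% of parental peaks had a lower fold than the ORC3 peak. The −log10 p was 23.1 in the B1 knockout, 200.5 in ROSA26 and 118 in the parental list. Summit reads were 60 (45.8 to 77.2) in the B1 knockout, 241 (212 to 273) in ROSA26 and 193 (167 to 222) in the parental library. The peak, 111, 77 and 125 bp before the ORC3 start, was shared with RARS2, the mitochondrial arginyl-tRNA synthetase gene.

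MCM7, a subunit of the helicase ring (chromosome 7, 100092728 to 100101397), had folds of 5.55 in the B1 knockout, 11.4 in ROSA26 and 7.11 in the parental list. The −log10 p was 28.7, 164 and 82.0, and summit reads were 71 (55.5 to 89.6), 238 (209 to 270) and 189 (163 to 218), in the B1 knockout, ROSA26 and parental libraries. The summits lay 628, 637 and 618 bp inside the span, within 15, 6 and 25 bp of another listed start of MCM7, and were shared with AP4M1, a gene of an adaptor complex for vesicle transport. ROSA26 had a further, weaker MCM7 peak (fold 4.20) 519 bp before the outermost start, with none there in the B1 knockout or parental list.

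**Figure D2:**
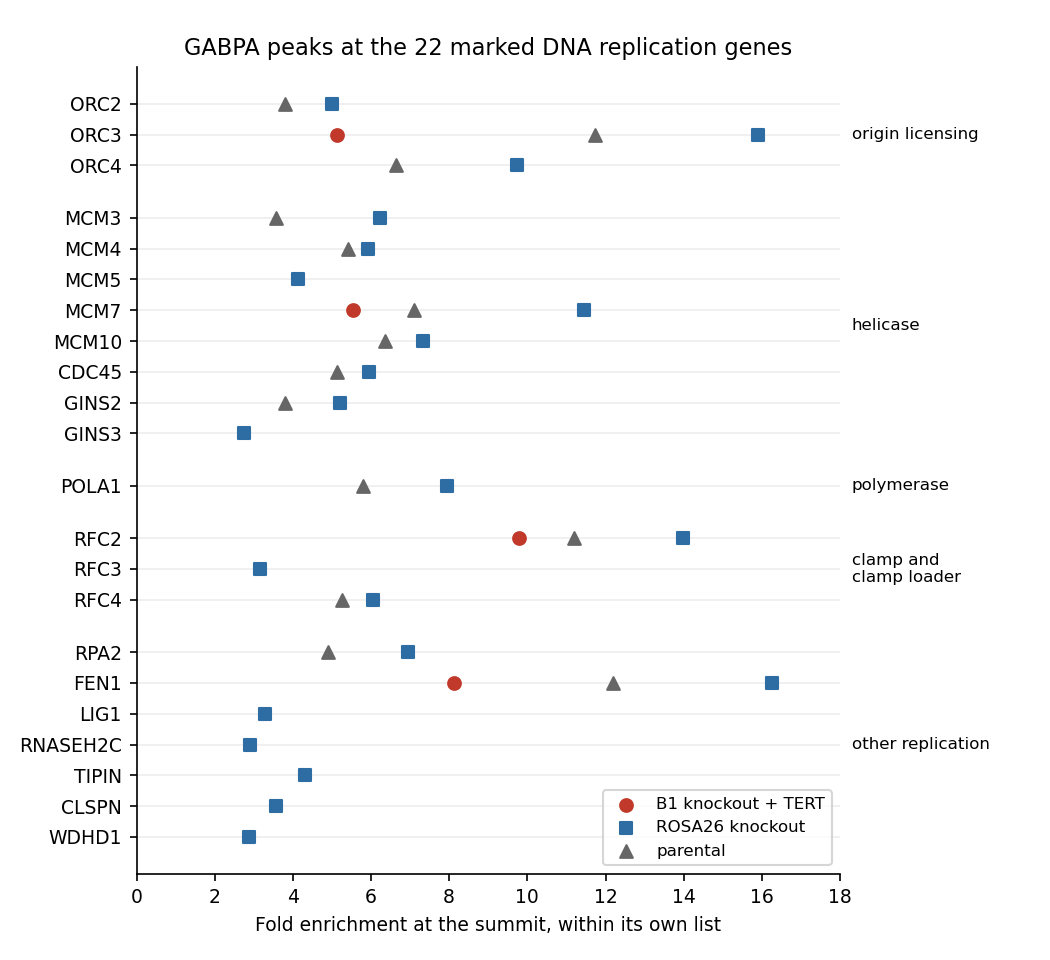
Fold enrichment of the strongest GABPA peak (x axis, within its own list) at each of the 22 marked replication genes (y axis, by role) in the B1 knockout, ROSA26 and parental lists. No symbol means no listed peak, and the second ROSA26 peak of MCM7 is not drawn. B1 knockout symbols appear at ORC3, MCM7, RFC2 and FEN1 only.

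Among the 9 origin licensing genes, ORC2 and ORC4 were marked in both controls and not in the B1 knockout. ORC4 (chromosome 2, 147930396 to 148021551) had folds of 9.73 in ROSA26 and 6.65 in the parental list and was the member without a B1 knockout peak that had the highest fold in both controls, while RPA2 had a higher −log10 p and more summit reads in both. The ORC4 summits, 669 and 651 bp inside the span, lay 145 and 163 bp from another listed ORC4 start. They were shared with MBD5, a gene of the methyl-CpG binding domain family. ORC2 had folds of 4.99 in ROSA26 and 3.81 in the parental list. ORC5 and ORC6, the loaders CDC6 and CDT1, and GMNN, which encodes the CDT1 inhibitor geminin, were marked in no library. ORC1, the largest ORC subunit, was also unmarked by its span, but a peak in all 3 lists lay inside it, 148, 148 and 126 bp from an internal ORC1 start listed by RefSeq, with folds of 5.89 in the B1 knockout, 7.51 in ROSA26 and 10.4 in the parental list. That peak was also within 1 kb of PRPF38A, a splicing factor gene.

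In the helicase group 1 of 13 genes was marked in the B1 knockout (7.69%, 0.195 to 36.0), 8 in ROSA26 (61.5%, 31.6 to 86.1) and 6 in the parental list (46.2%, 19.2 to 74.9). The share of all genes lay within the interval in the B1 knockout (9.32%) and below it in ROSA26 (18.5%) and the parental list (15.5%). Of the ring subunits, MCM3 had folds of 6.24 in ROSA26 and 3.57 in the parental list, and MCM4 had 5.93 and 5.40. MCM4 stood 760 and 771 bp from its summits, the members' peaks farthest from a gene end that still counted, and shared them with PRKDC, the catalytic subunit gene of the DNA-dependent protein kinase. MCM5 was marked in ROSA26 alone (4.14), and MCM2 and MCM6 in no library. MCM10, which helps to activate the helicase (chromosome 10, 13161558 to 13211110), had folds of 7.32 in ROSA26 and 6.35 in the parental list. CDC45 had 5.94 and 5.14, and shared its peak with UFD1, a ubiquitin-dependent segregase cofactor gene. GINS2 had 5.21 and 3.79, and GINS3 was marked in ROSA26 alone (2.75). MCMBP, an MCM-binding protein, GINS1 and GINS4 were unmarked in all 3 libraries.

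In the polymerase group 0 of 12 genes were marked in the B1 knockout (exact upper limit 26.5%), 1 in ROSA26 (8.33%, 0.211 to 38.5) and 1 in the parental list (8.33%, with the same interval). The shares of all genes, 9.32% in the B1 knockout, 18.5% in ROSA26 and 15.5% in the parental list, lay within these intervals. The marked gene was POLA1, the catalytic subunit of polymerase alpha (chromosome X, 24693918 to 24996986), with folds of 7.95 in ROSA26 and 5.80 in the parental list at 122 and 42 bp before the start. POLA2, PRIM1 and all subunits of polymerases delta and epsilon on the list (POLD1 to POLD4, POLE and POLE2 to POLE4) had no peak near a span end in any library. PRIM2, the large primase subunit, had peaks 11 and 13 bp from an internal start in ROSA26 (fold 7.32) and the parental list (4.40), which lie far inside its span and were not counted. No B1 knockout peak was listed there.

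In the clamp and loader group, RFC4 had folds of 6.05 in ROSA26 and 5.26 in the parental list without a B1 knockout peak, and RFC3 was marked in ROSA26 alone (3.16). RFC1, RFC5 and PCNA, the clamp itself, were unmarked. PCNA was the member just outside the limit of 1 kb: a peak in all 3 lists, with folds of 9.06 in the B1 knockout, 14.5 in ROSA26 and 12.3 in the parental list, lay 1866, 1846 and 1864 bp from the end of its span and within 1 kb of TMEM230, a vesicle membrane protein gene. Of the 15 other genes, 1 was marked in the B1 knockout (6.67%, 0.169 to 31.9), 7 in ROSA26 (46.7%, 21.3 to 73.4) and 2 in the parental list (13.3%, 1.66 to 40.5). As in the helicase group, the share of all genes in ROSA26 (18.5%) lay below the interval. In the B1 knockout and the parental list it lay within. Of the 7, 5 had no parental peak (71.4%, against 17.1% over all genes). RPA2, a subunit of the single-strand binding protein RPA, had folds of 6.94 in ROSA26 and 4.90 in the parental list. LIG1 (the ligase that seals Okazaki fragments, 3.28), RNASEH2C (a subunit of the enzyme that removes RNA from DNA, 2.91), TIPIN (4.31) and CLSPN (3.58), both of which act in fork protection and checkpoint signalling, and WDHD1 (2.89), which tethers polymerase alpha to the helicase, were marked in ROSA26 alone. RPA1, RNASEH2A, RNASEH2B, DNA2, TIMELESS, RECQL4 and TICRR had no peak. RPA3 had none near its span ends, while a peak at least 4068 bp inside it, shared with UMAD1, was listed with folds of 4.09 in the B1 knockout, 10.8 in ROSA26 and 10.4 in the parental list.

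The 10 members marked in both controls without a B1 knockout peak had −log10 p of 29.8 (ORC2) to 99.9 (RPA2) in ROSA26 and 13.99 (MCM3) to 46.7 (RPA2) in the parental list. The 8 members marked in ROSA26 alone had −log10 p of 9.71 (WDHD1) to 35.0 (TIPIN). Their peaks were weak, with folds of 2.75 to 4.31 and a median of 3.22. The 630 genes at large marked in ROSA26 without a parental peak had a median of 3.25, close to that of the members. The 14 members marked in both controls had ROSA26 folds of 4.99 to 16.2 with a median of 7.13, against a median of 8.26 over the 3063 genes.

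The members without a B1 knockout peak had weaker control peaks than the 4 members with one. The 4 genes with a B1 knockout peak had parental folds of 7.11 to 12.2 with a median of 11.5, and the 10 without had 3.57 to 6.65 with a median of 5.20. The median over all 14 was 5.60. Over all 3063 genes marked in both controls the median parental fold was 7.08. Of all genes within the range of the 4 members, 89.9% (87.9 to 91.6) had a B1 knockout peak, against 30.9% (28.2 to 33.7) of the 1097 genes within the range of the 10. In 4 bins of parental fold with near equal numbers of genes, the share of all genes with a B1 knockout peak was 8.36% in the weakest, 48.3% in the second, 87.3% in the third and 97.8% in the strongest bin. The members held 0 of 3, 0 of 7, 1 of 1 and 3 of 3 in the same bins. The second bin, with folds of 4.72 to 7.08, holds CDC45, MCM4, MCM10, ORC4, POLA1, RFC4 and RPA2. This describes 7 genes in 1 library per condition, and the difference was not tested.

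**Figure D3:**
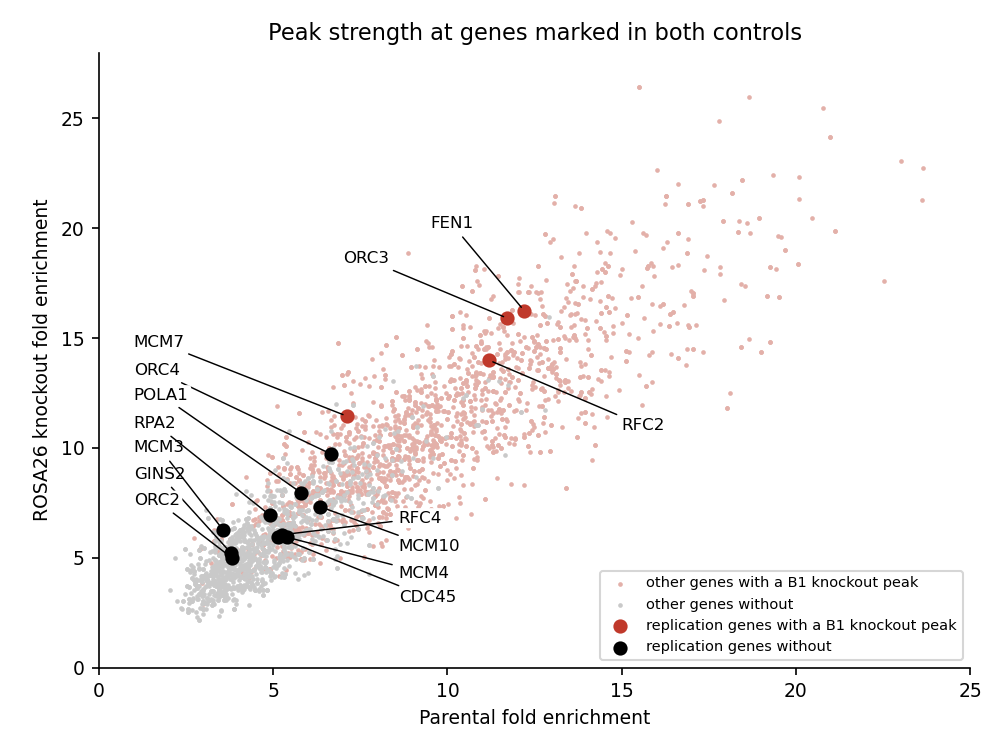
ROSA26 fold enrichment (y axis) against parental fold enrichment (x axis) for the 3063 genes marked in both controls, each point a gene with its strongest nearby peak. Large points are the 14 replication genes, and the 4 with a B1 knockout peak (red) have parental folds of 7.11 to 12.2, above the 10 without (black, 3.57 to 6.65).

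The control peaks were also rescaled to the background of the B1 knockout library, by shrinking reads and background together and recomputing the Poisson tail. At that background the parental peaks of the 10 members without a B1 knockout peak kept a −log10 p of 10.3 to 32.4, with a median of 23.5, and their ROSA26 peaks 19.6 to 64.7, with a median of 34.4. The lowest −log10 p in the B1 knockout list was 4.74, its 10th percentile 13.6 and its median 34.2. ORC4 kept 60.8 from ROSA26 and 32.4 from the parental library, RPA2 kept 64.7 and 32.2, and MCM10 kept 43.2 and 29.9. Of all genes whose parental peak kept a value within the range of the 10, 19.4% had a B1 knockout peak, and 35.7% (33.0 to 38.4) of those in the ROSA26 range did. The 4 members with a B1 knockout peak kept 56.7 to 117 from the parental library, a range in which 94.5% of genes had one.

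Lists of equal length gave another share. When every list was shortened to its 1660 peaks of highest −log10 p, 6 members were marked in both controls and 4 of them in the B1 knockout (66.7%), FEN1, MCM7, ORC3 and RFC2 again, with ORC4 and RPA2 lacking a B1 knockout peak. The share over all genes under that setting was 89.0%. When each peak counted for the nearest gene only, 8 members were marked in both controls and 1 of them, RFC2, in the B1 knockout (12.5%, against 57.9% of all genes). FEN1, ORC3 and MCM7, whose peaks are shared with a neighbour, were not among the 8. A peak shared with another gene's end was found for 3 of the 4 members with a B1 knockout peak, 3 of the 10 without and 3 of the 8 marked in ROSA26 alone. Over all genes the shares were 47.2%, 38.9% and 36.5% in the same order.

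The sequence at the summits was read from RefSeq promoter windows of GRCh38.p14, which run from 250 bases before to 50 after a listed start and were found for 47 of the 55 members. The letters CGGAAG were taken here as the core of the site that ETS proteins such as GABPA contact. They were sought on both strands within 100 bp of the ROSA26 summit, which marks all 22 genes. Of 21 members searched, 10 had a match in the bases covered by a window of any gene. In the 101 bases centred on a summit, where covered, the letters stood at 2 of 4 member peaks in the B1 knockout, 6 of 16 in ROSA26 (37.5%) and 7 of 11 in the parental list (63.6%). The shares over all covered peaks near protein-coding genes were 75.6% in the B1 knockout, 68.8% in ROSA26 and 72.4% in the parental list. All 201 bases were covered for 12 members, and none for MCM5, RPA2, LIG1 and CLSPN. The matches lay 4 to 86 bp from the summit, with a median of 26 bp. They are printed below in 30 bases each, on the strand that reads CGGAAG, with those letters in capitals, so that the flanks of members with and without a B1 knockout peak can be compared.

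The first 4 are the genes with a B1 knockout peak, the next 4 are marked in both controls only, and the last 2 in ROSA26 alone.
FEN1 (chr11:61792582-61792611, plus strand): ccgctccgccacCGGAAGaacacgtcggca
RFC2 (chr7:74254459-74254488, plus strand): gccgggcgcgagCGGAAGttacgtacccgc
ORC3 (chr6:87589957-87589986, plus strand): tgtccacctctaCGGAAGtgcgccgcagtc
MCM7 (chr7:100100767-100100796, minus strand): agtggagccgggCGGAAGtggcgcgaggag
ORC4 (chr2:148020815-148020844, minus strand): aaagtggaggaaCGGAAGtgggcgtggacg
GINS2 (chr16:85688996-85689025, plus strand): gcccgccccggcCGGAAGacggcctgcgcc
POLA1 (chrX:24693834-24693863, minus strand): cggacttccggcCGGAAGgccactgacgtg
RFC4 (chr3:186806517-186806546, minus strand): gcgccccagcacCGGAAGtgacgcgttacg
GINS3 (chr16:58392327-58392356, minus strand): aggtgggggcgcCGGAAGttctcttccctc
WDHD1 (chr14:55027225-55027254, plus strand): gggagctgaacaCGGAAGtggtggcggcgc

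At the site nearest the summit, the full 8 letters CCGGAAGT stood at RFC4 and GINS3, and the 7 letters CCGGAAG at FEN1, GINS2 and POLA1 as well. RFC2, ORC3, MCM7, ORC4 and WDHD1 matched only the 6 core letters there. Of the 4 members with a B1 knockout peak, FEN1 had the 7 letters and none had all 8 at that site. The FEN1 site lies outside the promoter window of FEN1 itself. In their own promoter windows, which are a different stretch, none of these 4 members held the 7 letters. Of all genes with a peak in all 3 lists, 64.0% held the 7 letters there and 40.0% the 8. MCM10, RFC3 and TIPIN had all bases covered and no match, which says only that these letters are absent from that window. MCM7 had 3 core matches within reach, and ORC4, POLA1 and RFC2 had 2 each.

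Upstream stretches outside every protein-coding span are printed for 4 genes, which do not cover every outcome. RFC2 is marked in all 3 libraries, POLA1 and RFC4 in the controls only with a full match, and MCM10 in the controls only without CGGAAG. The stretches of ORC3 and FEN1, also marked in all 3 libraries, held no CGGAAG and are not printed. Shorter or variant ETS letters were not sought in any stretch. That of GINS2, marked in the controls only, held 1 match and is not printed either. Each printed stretch reads toward its gene and ends at the base before the outermost start, and capitals mark CGGAAG or its reverse complement.
RFC2 (chr7:74254400-74254649, minus strand): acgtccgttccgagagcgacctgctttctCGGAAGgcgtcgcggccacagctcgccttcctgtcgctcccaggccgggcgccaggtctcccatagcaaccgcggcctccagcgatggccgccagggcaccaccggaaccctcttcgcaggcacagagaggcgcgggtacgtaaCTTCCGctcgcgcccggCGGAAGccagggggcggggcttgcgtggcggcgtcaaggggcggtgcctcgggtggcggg
POLA1 (chrX:24693668-24693917, plus strand): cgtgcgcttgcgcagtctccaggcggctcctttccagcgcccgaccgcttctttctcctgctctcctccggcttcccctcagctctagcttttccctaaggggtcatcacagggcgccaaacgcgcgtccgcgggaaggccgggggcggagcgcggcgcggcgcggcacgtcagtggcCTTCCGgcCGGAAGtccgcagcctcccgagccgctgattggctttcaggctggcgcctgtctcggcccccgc
RFC4 (chr3:186806483-186806732, minus strand): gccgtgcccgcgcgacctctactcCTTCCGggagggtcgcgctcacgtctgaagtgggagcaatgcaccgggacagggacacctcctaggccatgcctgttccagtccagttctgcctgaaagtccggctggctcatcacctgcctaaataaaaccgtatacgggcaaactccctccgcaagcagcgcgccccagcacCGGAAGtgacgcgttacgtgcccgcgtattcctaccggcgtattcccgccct
MCM10 (chr10:13161308-13161557, plus strand): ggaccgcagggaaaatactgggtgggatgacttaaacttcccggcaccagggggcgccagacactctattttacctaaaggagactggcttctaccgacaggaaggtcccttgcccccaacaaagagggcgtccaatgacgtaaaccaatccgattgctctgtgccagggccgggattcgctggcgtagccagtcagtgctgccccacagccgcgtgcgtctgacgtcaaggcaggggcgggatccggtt

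In RFC2 the core letters begin 221, 77 and 60 bases before the start, and the summits at 81, 90 and 76 bases sit beside the inner pair, which have opposite orientations. In POLA1 a pair of opposite orientation begins 72 and 64 bases before the start, between the ROSA26 summit at 122 and the parental summit at 42. In RFC4 the matches begin 226 and 52 bases before the start, with the summits at 19 bases in ROSA26 and 57 in the parental list. MCM10 holds the letters CCAAT, the box bound by NF-Y, 118 and 105 bases before the start, near its summits at 136 and 129. These letters are not particular to MCM10: POLA1 holds them on the other strand 36 bases before its start, near its parental summit at 42. The printed MCM10 stretch also reads caggaag, which differs from CGGAAG in the base before ggaag and was not counted. The absence of CGGAAG at MCM10 thus does not show that an ETS site is absent.

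**Figure D4:**
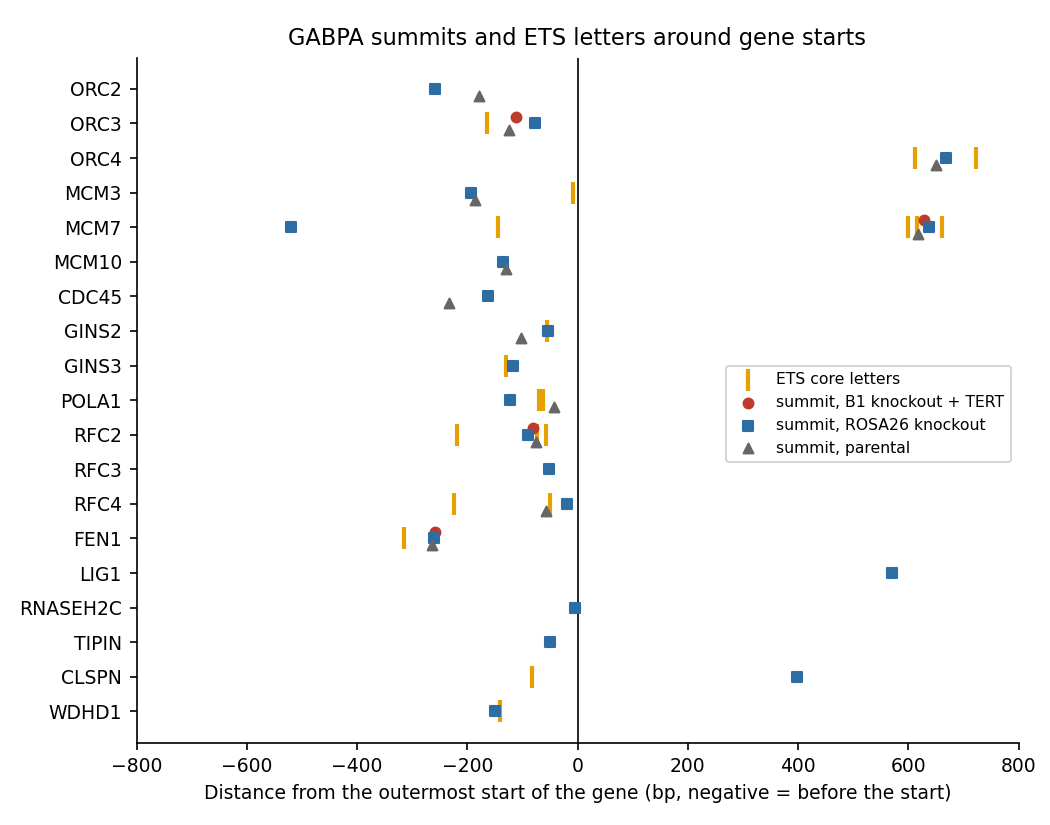
Position of GABPA summits in the B1 knockout, ROSA26 and parental lists and of matches to the ETS core letters (x axis, bp from the outermost start, negative before it) at the 19 marked genes with a promoter window (y axis). Letters were sought only where a window covers the sequence. Most summits lie within 200 bp before the start, and those of ORC4 and of the strongest MCM7 peaks lie over 600 bp inside the gene. The second ROSA26 peak of MCM7 lies 519 bp before the start.

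Member peaks lay mostly at gene starts, as did peaks near genes at large. Of the 23 ROSA26 peaks near the members, 15 had a summit within 200 bp of the gene end (65.2%), against 73.2% of all 3755 pairs of a gene and a nearby ROSA26 peak. All 20 member peaks at a gene of known strand were nearest the start, against 95.03% of all such pairs. The distance ran from 4 bp at RNASEH2C to 760 bp at MCM4, with a median of 150 bp, against 78 bp over all pairs. For the 14 genes marked in more than 1 list, the summits of the strongest peaks lay 6 to 84 bp apart between lists, with a median of 28.5 bp.

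Promoters of replication genes held E2F letters more often than promoters at large, by more than the counting intervals, and no such difference was resolved for the ETS letters. E2F letters were taken as TTTCCCGC, TTTGGCGC, TTTCGCGC or TTTGCCGC on either strand, and at least 1 was found in a promoter window of 22 of 47 members (46.8%, 32.1 to 61.9), against 5.41% (5.06 to 5.77) of 15813 protein-coding genes with a window. In the helicase group 8 of 10 genes had one, among them MCM2, MCM3, MCM6, MCM7, GINS1, GINS2 and GINS3. The share was 4 of 9 in origin licensing (ORC3, CDC6, CDT1 and GMNN), 5 of 11 among polymerases, 2 of 6 in clamp and loader (RFC3 and PCNA) and 3 of 11 in the others. Of the members marked in both controls 5 of 12 (41.7%, 15.2 to 72.3) had E2F letters, against 7.70% of all genes marked in both controls. Members unmarked in all lists had them in 12 of 28 (42.9%, 24.5 to 62.8), and members marked in any list in 10 of 19 (52.6%, 28.9 to 75.6). The 28 include ORC1 and PRIM2, which have peaks near a listed start that were not counted, so unmarked does not mean without a peak at the window.

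The longest ETS letters were found at marked members. CCGGAAGT was found for 3 of 47 members (6.38%, 1.34 to 17.5) and for 6.99% of all genes. All 3 were among the marked genes (GINS3, POLA1 and RFC4), and 0 of the 28 unmarked members had it (upper limit 12.3%). Of members marked in both controls 2 of 12 had it (16.7%, 2.09 to 48.4), against 32.1% (30.3 to 33.9) of all genes marked in both controls. Over all genes the share was 40.0% of those marked in all 3 lists and 19.7% of those marked in both controls only. It was 1.57% of those with no peak near a span end in any list. The core CGGAAG, which the longer letters contain, was found for 8 of 12 members marked in both controls (66.7%, 34.9 to 90.1) and 74.1% of all such genes. CCAAT letters were found for 29 of 47 members (61.7%, 46.4 to 75.5) and 42.1% of all genes. Counts of letters are a description and show no binding site.

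**Figure D5:**
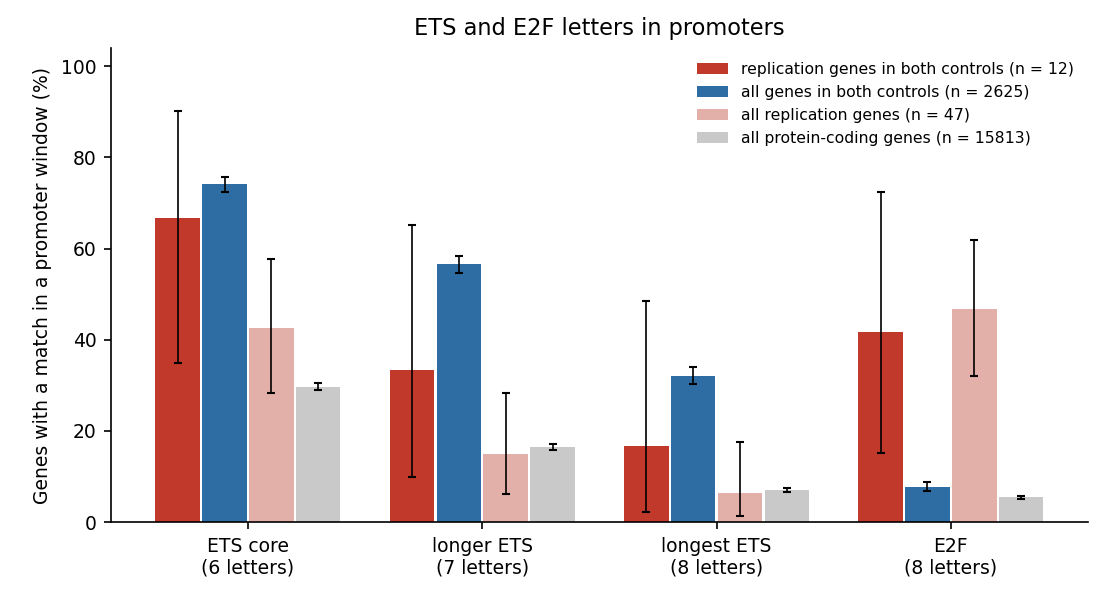
Share of genes with ETS or E2F letters in a promoter window (y axis, percent) for the 12 replication genes marked in both controls, all 2625 genes marked in both controls, all 47 replication genes with a window and all 15813 genes. Bars are shares and lines exact 95% intervals, and the ETS words of 6, 7 and 8 letters are nested. E2F letters stand at 46.8% of replication genes and 5.41% of all genes.

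Most genes of the wider pathway that were marked in both controls had a B1 knockout peak. So did most of all genes marked in both controls, whose share lay within the counting interval of the pathway genes. Of 72 genes in 4 further lists, 15 were marked in the B1 knockout (20.8%, 12.2 to 32.0), 27 in ROSA26 (37.5%, 26.4 to 49.7) and 20 in the parental line (27.8%, 17.9 to 39.6). The shares of all genes were 9.32% in the B1 knockout, 18.5% in ROSA26 and 15.5% in the parental line. All 20 were marked in both controls and 15 of them had a B1 knockout peak (75.0%, 50.9 to 91.3), against 4 of 14 members (28.6%, 8.39 to 58.1) and 60.4% of all genes. The intervals of the 2 sets overlap, and the difference was not tested. Parental folds had a median of 7.70 in the 20 genes and 5.60 in the 14 members. From the weakest to the strongest bin of parental fold, 1 of 5, 4 of 5, 6 of 6 and 4 of 4 of these genes had a B1 knockout peak. In the second bin this stands beside 0 of 7 members and 48.3% of all genes. Within the range that the rescaled parental −log10 p of the 10 members spans, 2 of 6 of these genes had one, against 19.4% of all genes.

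Of 25 initiation and fork factors, 6 were marked in the B1 knockout (24.0%, against 9.32% of all genes), 11 in ROSA26 (44.0%, against 18.5%) and 9 in the parental line (36.0%, against 15.5%). TOPBP1, the scaffold that activates the ATR kinase and helps to assemble the helicase, had folds of 4.53 in the B1 knockout, 12.1 in ROSA26 and 10.7 in the parental list, and MTBP, a partner of TICRR, had 6.57, 8.16 and 13.4. LRWD1, an ORC-associated protein gene (5.14 in ROSA26 and 5.74 in the parental list), and DSCC1, of an alternative clamp loader (6.19 and 4.10), had no B1 knockout peak. Of 16 nucleotide supply genes, 2 were marked in the B1 knockout (12.5%), 3 in ROSA26 (18.8%) and 2 in the parental line (12.5%), shares near those of all genes. NME1, a nucleoside diphosphate kinase gene, had folds of 14.1, 18.2 and 15.7, and DUT, which removes dUTP, had 3.81, 6.68 and 6.57, in the order B1 knockout, ROSA26 and parental.

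Of 14 replication checkpoint genes, 2 were marked in the B1 knockout (14.3%, against 9.32% of all genes), 6 in ROSA26 (42.9%, against 18.5%) and 4 in the parental line (28.6%, against 15.5%). RAD1 (5.19 in the B1 knockout, 11.96 in ROSA26 and 11.77 in the parental list) and HUS1 (4.67, 9.23 and 6.16), subunits of the checkpoint clamp, were marked in all 3. Their loader RAD17 (2.64 in ROSA26 and 3.86 in the parental list) and the kinase ATR (2.72 and 2.91) were not marked in the B1 knockout. Of 17 genes of replication-coupled chromatin and cohesion, 5 were marked in the B1 knockout (29.4%), 7 in ROSA26 (41.2%) and 5 in the parental line (29.4%). The shares of all genes were 9.32%, 18.5% and 15.5% in that order. The 5 of the B1 knockout and of the parental line were the same genes, ASF1B, DNMT1, ESCO2, NASP and RBBP4. RBBP4, a histone chaperone subunit gene, had folds of 6.64, 9.43 and 9.14, and DNMT1, which copies DNA methylation, had 3.87, 11.2 and 8.50, in the order B1 knockout, ROSA26 and parental.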

How the data were processed

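The submitters' processing notes name Bowtie2, SAMtools, MACS2 and the build hg38. Versions, thresholds and the use of inputs were not given in the sources used here. No file of the 3 inputs was analysed. Each ChIP library has its own deposited list, with a fold enrichment (a ratio), the −log10 p and −log10 q of the summit, and a score that is 10 times the −log10 q, all as the authors' caller wrote them. Summit reads and background were solved from the deposited fold and −log10 p with the MACS2 formula within 0.01 in −log10 p (all peaks solved), and the solver was tested on simulated data. Gene spans and promoter windows came from RefSeq GRCh38.p14. Windows of chromosome 8 were not used, and E2F and CCAAT letters were added after the files were opened. No test between conditions was possible with 1 library each, so no p-value is given; shares have exact 95% intervals. Every marked member is named, with the 2 other pathway genes of highest parental fold per list with and without a B1 knockout peak. Members and lists were chosen with earlier results of these data known. Alternatives covered distance, gene assignment, list length, the q threshold, the choice of control and the definition of a shared peak. Python 3.11.15, numpy 2.4.6, pandas 2.3.3 and scipy 1.17.1 were used.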

Additional observations from a re-analysis of the deposited data

How the results depend on the processing

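The alternatives were the distance, the gene assignment, the list length, a −log10 q of at least 10, the choice of control and the definition of a shared peak. With each peak counted for the nearest gene only, 1 member was marked in the B1 knockout and 8 in the parental line, and 1 had a peak in all 3 lists. With equal list lengths, 6 members were marked in ROSA26 and 6 in the parental line, and 2 marked in both lacked a B1 knockout peak. With ROSA26 as the control, 18 marked members lacked one. The other values stayed within 1.5 times those reported. The count of members with a peak in all 3 lists ran from 1 to 6 over 11 alternatives, and the share of control-marked members with a B1 knockout peak was below that of all genes under each of them, whether both controls or a single control defined the set. No paired analysis was possible because each condition has 1 ChIP library. The B1 knockout background was 64.0% of the parental one. Read totals were not used here, so how far depth accounts for a missing peak was not tested. The cause of these shifts was not tested.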
